A study of Mus musculus with 47 samples.

Results

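Loss of the nuclear receptor PXR in mouse liver is described here for 10 genes of varied function among the 21873 genes tested. They were chosen by how their mRNA differed between Pxr-/- and Pxr+/+ mice given plain water (Cont), so those differences describe the choice and were not tested. The genes are Akr1b7, Cyp2g1, Pla2g12a, Rarres1, Adamtsl1, Tmeff2, Meig1, Apol7b, Mmd2 and Adrb3. The array holds 16 probes for them among 56605 probes for genes, of which 13 passed the filter on low signal, with at least 1 for each of the 10 genes. For 9 of the genes the probe used would have passed in Pxr+/+ mice alone, whereas that of Tmeff2 passed only through Pxr-/- males. That of Meig1 passed only through groups of males. Mice treated with antibiotics (ATB) were not used in the choice, and they carry the tests of genotype and sex below.

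Whole-liver RNA was hybridized on 1-color Agilent arrays, with 1 array per mouse for 47 mice. Mice were male or female, Pxr+/+ or Pxr-/-, and Cont or ATB, which gives 8 groups of 6 mice, apart from the Pxr-/- Cont males, with 5. ATB mice drank vancomycin at 0.5 g/L for 2 weeks, together with ampicillin and neomycin at 1 g/L each. All mice were 6 months old, were on a C57Bl/6J background, came from Pxr+/- parents, and lived apart by sex and genotype after weaning. The Pxr deletion was carried in the germline, so liver and other organs both lacked the receptor. Mice of a group shared cages, and which mouse lived in which cage is not given.

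PXR, encoded by Nr1i2, is a nuclear receptor of liver and gut that is activated by drugs, bile acids and other foreign or endogenous compounds. It pairs with RXR on DNA and induces enzymes and transporters that clear its ligands, above all cytochromes P450 of the Cyp3a and Cyp2b families. The liver also differs strongly between male and female mice, because the sex-specific rhythm of growth hormone sets the expression of many P450s, sulfotransferases and aldo-keto reductases. The genes below include enzymes of steroid, aldehyde and phospholipid metabolism, secreted or membrane proteins, a gene known from spermatids and an adrenergic receptor.

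Values are log2 signals after removal of the wash batch and normalization between arrays, for the probe of each gene with the highest mean signal. A gene was called when limma's p-value, adjusted over all probes tested, was 0.05 or less and the fold change was above 1.2. Every array had between 31067 and 34458 probes well above background, and all 10 hepatocyte markers listed were measured, with 0 called between genotypes in ATB mice of either sex. The Nr1i2 probe (chromosome 16, 38248745 to 38248804, mm9) was well above background in all 47 mice. It was lower by a log2 difference of -0.57 ± 0.18 (SE) in ATB Pxr-/- males (limma, adjusted p = 0.0847) and by -0.50 ± 0.18 in ATB Pxr-/- females (adjusted p = 0.727). Whether the deletion covers this probe is not given, so it does not check the genotype labels. In whole liver, fewer cells of a type and less RNA per cell cannot be told apart.

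PXR loss under ATB changed most of these genes, in the direction seen in Cont mice. In ATB Pxr-/- males 7 of 10 genes rose and 2 fell relative to Pxr+/+ males (limma), and in ATB Pxr-/- females 4 rose and 2 fell. Tmeff2 is included in the male counts and the male median of this paragraph. Its probe passed the filter only through Pxr-/- males, so its male test was not independent of the filter. Among all genes tested, 0.914% were called in ATB males, 0.306% higher and 0.608% lower, and 0.215% were called in ATB females, 0.169% higher and 0.0457% lower. The groups of mice did not overlap for 9 of 10 genes in ATB males, where 3.37% of all genes did not overlap, and for 6 of 10 in ATB females, where the share was 0.434%. The median size of the log2 difference was 1.68 over the 10 genes and 0.15 over all genes in ATB males, and 0.88 and 0.07 in ATB females. The direction in ATB mice was that of the Cont mice for 10 of 10 genes in males and for 9 of 9 in females, leaving out Meig1, whose female signal was near background. It held in each of the 3 wash batches, which hold 3, 2 and 1 mice per group. In Cont mice, which chose the genes, the groups did not overlap for 10 of 10 genes in males and 6 of 10 in females, beside 0.846% and 1.77% of all genes. Over all genes the median log2 difference of ATB Pxr-/- from ATB Pxr+/+ males was -0.13, and the values below are not corrected for it. Quantile normalization of all arrays brought it to 0 and turned the split of all genes called in ATB males from 67 higher and 133 lower to 140 higher and 28 lower.

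**Figure D1:**
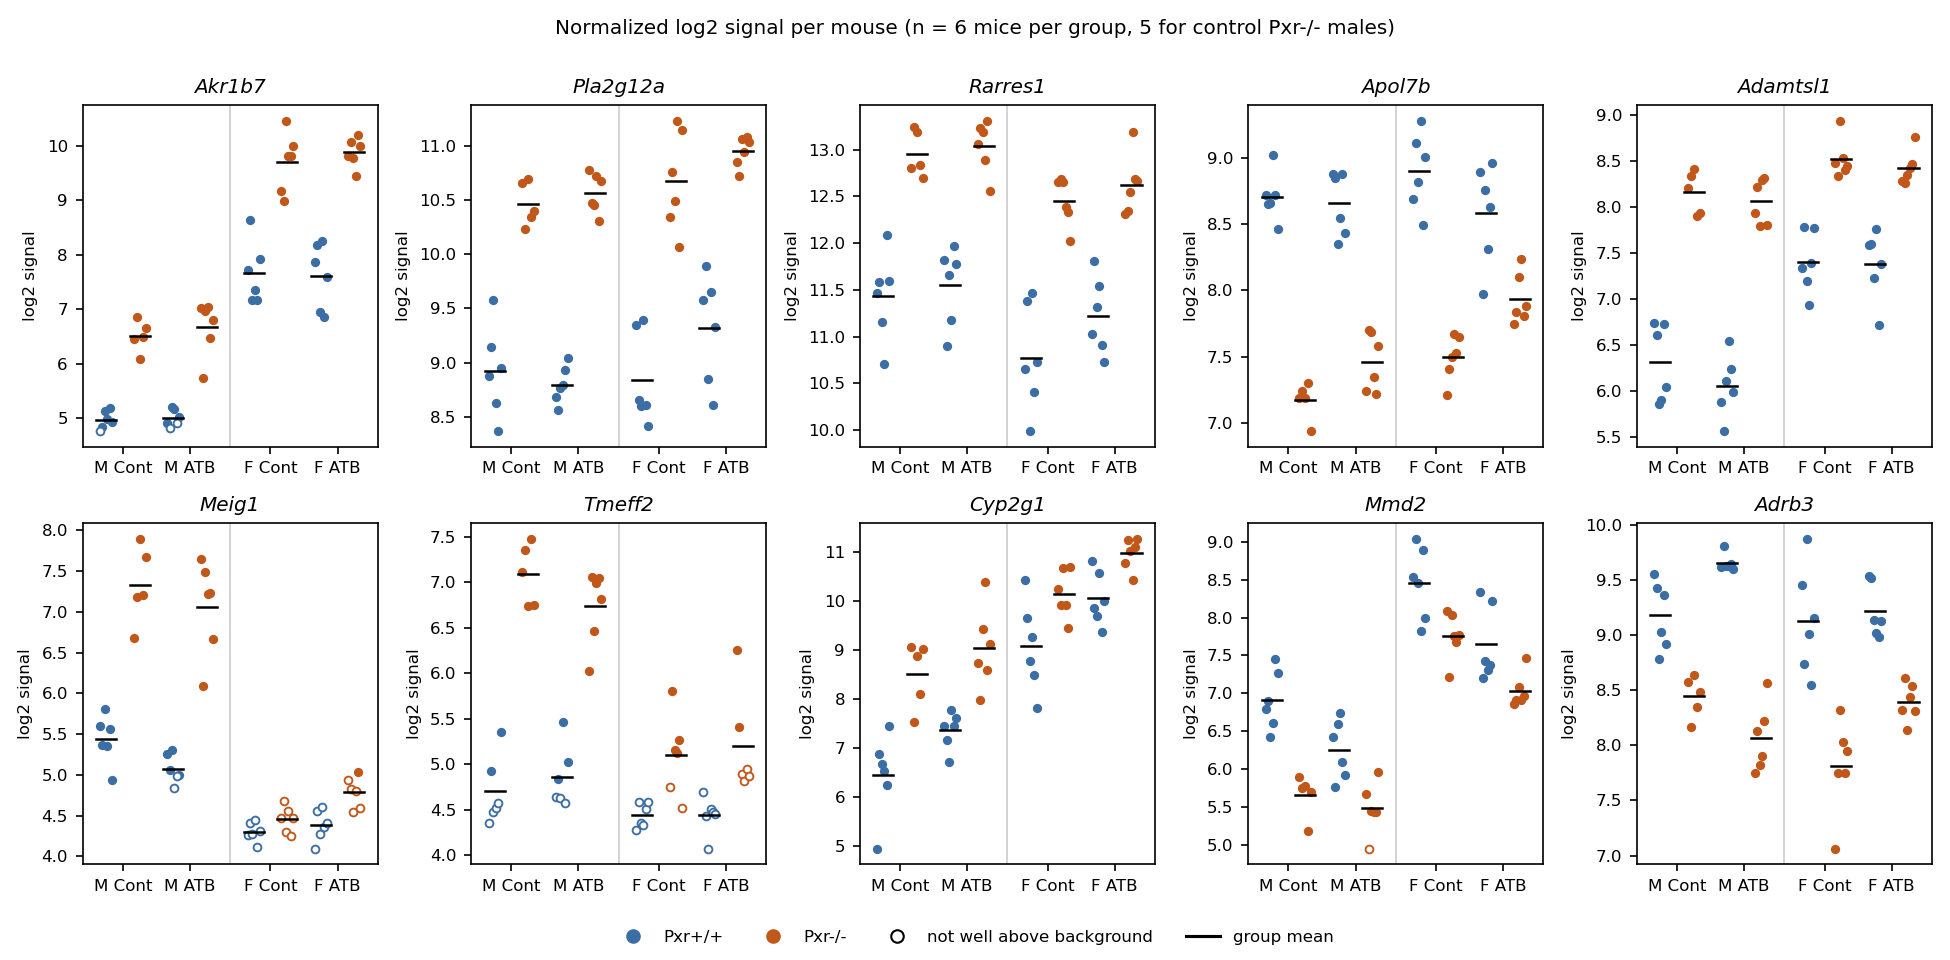
Normalized log2 signal (vertical axis) of the 10 genes in each of the 47 mice, with a panel per gene and a column of points per group; each point is a mouse, each bar is the group mean, and points of mice whose probe was not well above background are open. Pla2g12a lies apart between genotypes in all 4 pairs of groups, whereas Meig1 is raised in Pxr-/- males and near background in all 4 female groups.

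**Figure D2:**
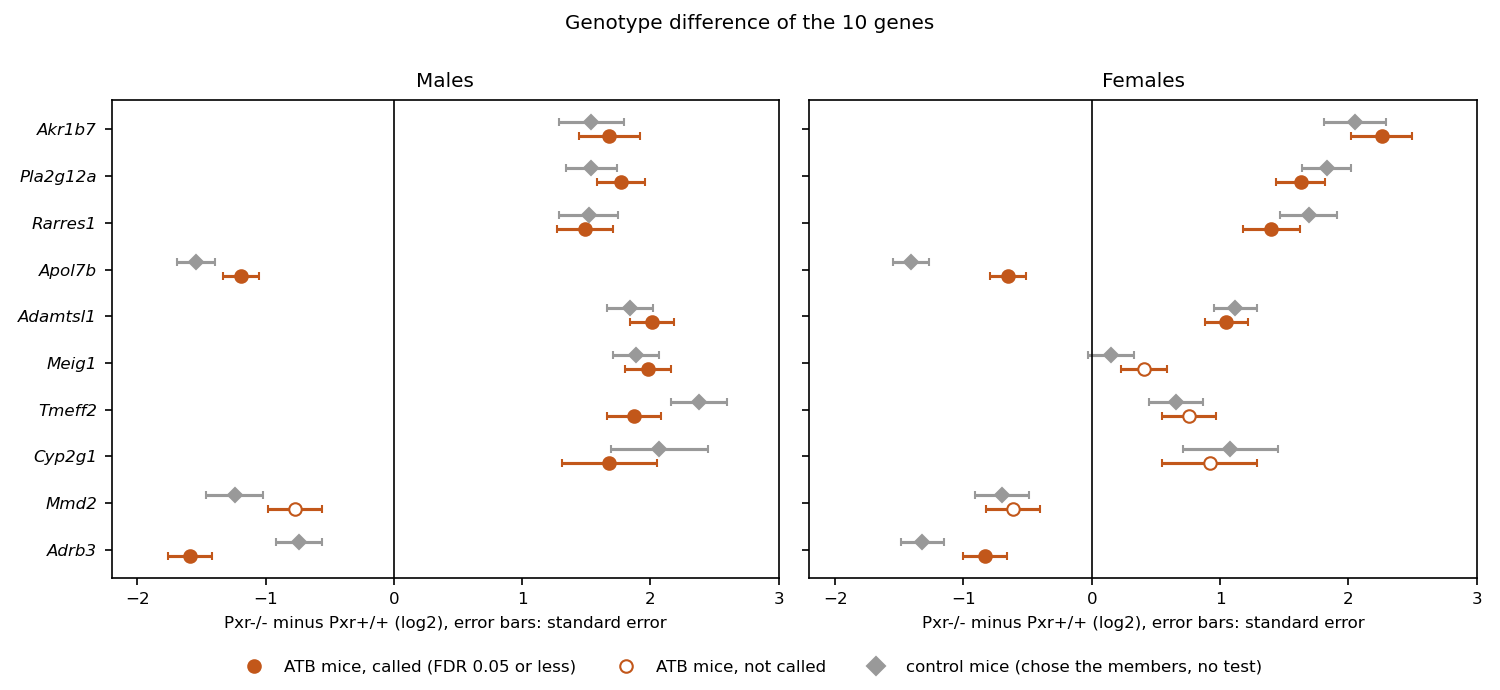
Log2 difference of Pxr-/- from Pxr+/+ mice (horizontal axis) for each of the 10 genes in Cont and ATB mice of each sex, with bars for the standard error of the limma fit, and filled circles for ATB differences that were called. Each gene lies on the same side of 0 in all 4 comparisons, with Meig1 near background in females, and the values of the Cont mice are those that chose the genes.

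The sequences just upstream of the genes are shown for those called in both sexes that have an entry in the RefSeq promoter table (GRCm38.p6), so that the stretch where nuclear receptors could bind near the start can be read beside the values. They are the 250 bases before the annotated start, 5′ to 3′ on the strand of the gene: chr6:34412112-34412361 (plus strand) for Akr1b7, chr3:129880934-129881183 (plus) for Pla2g12a, chr3:67515524-67515773 (minus) for Rarres1 and chr15:77447461-77447710 (minus) for Apol7b. Capitals mark the nuclear receptor half-sites AGGTCA or AGTTCA on either strand.
Akr1b7: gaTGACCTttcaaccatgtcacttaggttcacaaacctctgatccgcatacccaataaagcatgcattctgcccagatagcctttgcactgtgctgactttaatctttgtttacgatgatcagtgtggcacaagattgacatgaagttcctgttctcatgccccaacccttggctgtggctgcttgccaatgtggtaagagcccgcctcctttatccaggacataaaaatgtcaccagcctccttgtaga
Pla2g12a: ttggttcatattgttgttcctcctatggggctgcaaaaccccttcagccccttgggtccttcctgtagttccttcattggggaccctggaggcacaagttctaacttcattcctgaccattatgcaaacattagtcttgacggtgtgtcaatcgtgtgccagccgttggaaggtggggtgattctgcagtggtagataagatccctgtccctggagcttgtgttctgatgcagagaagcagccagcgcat
Rarres1: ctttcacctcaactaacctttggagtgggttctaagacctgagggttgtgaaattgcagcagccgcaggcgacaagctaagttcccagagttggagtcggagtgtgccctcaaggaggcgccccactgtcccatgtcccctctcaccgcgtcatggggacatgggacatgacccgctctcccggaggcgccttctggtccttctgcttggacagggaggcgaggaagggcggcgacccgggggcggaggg
Apol7b: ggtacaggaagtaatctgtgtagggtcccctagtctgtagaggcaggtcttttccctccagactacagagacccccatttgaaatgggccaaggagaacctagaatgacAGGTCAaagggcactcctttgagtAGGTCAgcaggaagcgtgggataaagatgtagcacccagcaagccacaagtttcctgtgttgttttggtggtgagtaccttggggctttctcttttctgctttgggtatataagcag
Akr1b7 held AGGTCA on the minus strand at -248 to -243 from the start, and Apol7b held it on the plus strand at -141 to -136 and at -117 to -112. No half-site of these letters was in the windows of Pla2g12a and Rarres1. Over the 7 genes of 10 with an entry, 4 had a half-site in at least 1 promoter, the others being Meig1 (AGTTCA at -148 to -143 and, in another of its promoters, at -44 to -39) and Mmd2 (AGTTCA at -209 to -204). Of 32851 mouse promoters of this length, 14% held AGGTCA, 11.8% held AGTTCA and 24.2% held either. These shares are per promoter, whereas the count of 4 is per gene over 9 promoters, so they are not like measures. Adamtsl1, Cyp2g1 and Adrb3 were not in the table. A match of 6 letters describes the sequence and does not show that a receptor binds there.

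Among the enzymes, Akr1b7 was higher in ATB Pxr-/- mice of both sexes, Cyp2g1 was called higher in ATB Pxr-/- males, and both were higher in ATB females than in ATB males. Akr1b7 (probe at chromosome 6, 34372905 to 34372964, mm9) is an aldo-keto reductase that reduces aldehydes from lipids and steroids and is best known from the vas deferens and the adrenal cortex. In ATB males its log2 signal was 4.81 to 5.20 (median 4.96) in Pxr+/+ and 5.73 to 7.04 (median 6.88) in Pxr-/- mice. In ATB females it was 6.86 to 8.25 (median 7.72) in Pxr+/+ and 9.44 to 10.19 (median 9.90) in Pxr-/- mice, so the genotypes did not overlap in either sex. The log2 difference was 1.68 ± 0.24 (SE) in males (limma, 3.20-fold, adjusted p = 1.95e-05). Females had a log2 difference of 2.26 ± 0.24 (limma, 4.79-fold, adjusted p = 4.51e-08). The lowest group was that of Pxr+/+ males, whose probe was well above background in 4 of 6 ATB mice, and the highest was that of Pxr-/- females. The male value moved with the processing, to 2.90 with the scanner's background-subtracted signal scaled to each array's 75th percentile, above the female 2.37, and to 1.09 with normexp and quantile normalization, beside a female 2.05.

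In Cont mice the order of the Akr1b7 groups was alike. The 5 Cont Pxr-/- males had log2 signals of 6.45, 6.86, 6.08, 6.48 and 6.66, above the Cont Pxr+/+ males at 4.76 to 5.19 (median 4.95). Cont females lay at 7.16 to 8.64 (median 7.53) in Pxr+/+ and at 8.99 to 10.46 (median 9.81) in Pxr-/- mice. In ATB mice, males were lower than females by a log2 difference of -2.62 ± 0.24 in Pxr+/+ (limma, adjusted p = 1.40e-11) and -3.20 ± 0.24 in Pxr-/- mice (adjusted p = 2.88e-14). Both Akr1b7 differences left no overlap between the sexes. Because Akr1b7 is abundant in the adrenal cortex, markers of that tissue were read beside it. Of 6 such markers, the steroidogenic P450s Cyp11b1, Cyp11b2 and Cyp11a1 did not pass the filter, and 1 of the other 3, the corticotropin receptor Mc2r, was called higher in ATB Pxr-/- males (limma, log2 difference 0.79, adjusted p = 0.039). In ATB females 0 of the 3 were called. The log2 genotype difference was above 0 for 2 of 3 in ATB males (median 0.41) and for 2 of 3 in ATB females (median 0.04). The mean log2 signal of the measured adrenal markers was 6.78 to 7.48 in ATB Pxr+/+ and 7.34 to 7.81 in ATB Pxr-/- males, and 6.48 to 6.89 and 6.44 to 7.11 in the ATB females. Their part in the Akr1b7 result was not tested.

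Cyp2g1 (chromosome 7, 27606111 to 27606170, mm9) encodes a cytochrome P450 that is best known from the olfactory mucosa, where it hydroxylates steroids. Its log2 signal was 6.73 to 7.78 (median 7.45) in Pxr+/+ and 7.98 to 10.40 (median 8.95) in Pxr-/- ATB males. Here the groups lay next to each other without overlap, and the Pxr-/- males spread over more than the Pxr+/+ males did. The difference was 1.68 ± 0.37 on the log2 scale (limma, 3.21-fold, adjusted p = 0.014), and without the ATB Pxr+/+ male replicate 3 its adjusted p was 0.0568. In ATB females the log2 signal was 9.38 to 10.83 (median 9.94) in Pxr+/+ and 10.43 to 11.28 (median 11.06) in Pxr-/- mice, with overlap, and the log2 difference of 0.92 ± 0.37 did not pass (limma, adjusted p = 0.879). Males were lower than females by log2 differences of -2.69 ± 0.37 in ATB Pxr+/+ mice (limma, adjusted p = 3.75e-07) and -1.93 ± 0.37 in ATB Pxr-/- mice (adjusted p = 0.000122). The widest groups for Cyp2g1 were in Cont mice, at 4.95 to 7.46 (median 6.61) in Pxr+/+ males and 7.83 to 10.44 (median 9.03) in Pxr+/+ females. Cont Pxr-/- males had log2 signals of 9.07, 7.54, 8.89, 8.11 and 9.03, and Cont Pxr-/- females lay at 9.46 to 10.70 (median 10.1).

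Pla2g12a (chromosome 3, 129597769 to 129597828, mm9), a secreted phospholipase A2 of group XIIA, was higher in Pxr-/- mice of both sexes. Its log2 signal was 8.56 to 9.04 (median 8.78) in Pxr+/+ and 10.31 to 10.78 (median 10.57) in Pxr-/- ATB males. In ATB females it was 8.61 to 9.89 (median 9.46) in Pxr+/+ and 10.72 to 11.08 (median 10.98) in Pxr-/- mice. The 6 Pxr-/- mice lay above all Pxr+/+ mice in each sex. The difference was 1.77 ± 0.19 (limma, 3.41-fold, adjusted p = 3.76e-08) in males and 1.63 ± 0.19 (3.09-fold, adjusted p = 7.92e-07) in females on the log2 scale. The genotype effect in ATB males less that in ATB females was 0.14 ± 0.27 (limma, adjusted p = 0.817), and the sexes differed by -0.52 ± 0.19 (adjusted p = 0.0724) in Pxr+/+ and -0.38 ± 0.19 (adjusted p = 0.133) in Pxr-/- ATB mice. In Cont mice the same separation had chosen the gene, with Pxr+/+ mice at 8.37 to 9.58 (median 8.92) in males and 8.42 to 9.39 (median 8.64) in females. Cont Pxr-/- males had log2 signals of 10.66, 10.23, 10.69, 10.34 and 10.40, and Cont Pxr-/- females lay at 10.07 to 11.23 (median 10.63).

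Rarres1, Adamtsl1 and Tmeff2 encode secreted or membrane proteins. Rarres1 (chromosome 3, 67282919 to 67282978, mm9), a membrane protein first found as a retinoid-induced gene, had log2 signals of 10.90 to 11.97 (median 11.72) in Pxr+/+ and 12.56 to 13.31 (median 13.12) in Pxr-/- ATB males. In ATB females they were 10.73 to 11.81 (median 11.17) in Pxr+/+ and 12.31 to 13.19 (median 12.61) in Pxr-/- mice. Neither sex showed overlap between genotypes. The log2 difference was 1.49 ± 0.22 in males (limma, 2.81-fold, adjusted p = 3.17e-05) and 1.40 ± 0.22 in females (2.64-fold, adjusted p = 0.000248). Rarres1 was not called between the sexes, at 0.33 ± 0.22 (limma, adjusted p = 0.397) in Pxr+/+ and 0.42 ± 0.22 (adjusted p = 0.142) in Pxr-/- ATB mice. Cont Pxr-/- males lay at 12.80, 13.24, 13.19, 12.84 and 12.70, above Cont Pxr+/+ males at 10.71 to 12.09 (median 11.52). In Cont females the log2 signal was 9.99 to 11.47 (median 10.69) in Pxr+/+ and 12.02 to 12.69 (median 12.52) in Pxr-/- mice.

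Adamtsl1 encodes a matrix glycoprotein related to the ADAMTS proteases but without their protease domain. At its brightest probe (chromosome 4, 85845314 to 85845373, mm9) the log2 signal was 5.57 to 6.55 (median 6.05) in Pxr+/+ and 7.80 to 8.32 (median 8.08) in Pxr-/- ATB males. ATB females had 6.72 to 7.76 (median 7.49) in Pxr+/+ and 8.26 to 8.76 (median 8.39) in Pxr-/- mice. Pxr+/+ males were thus the lowest ATB group, and the Pxr-/- groups of both sexes lay close together. The log2 difference between genotypes was 2.01 ± 0.17 in males (limma, 4.02-fold, adjusted p = 3.71e-11) and 1.05 ± 0.17 in females (2.07-fold, adjusted p = 0.000647). The difference between these effects was 0.96 ± 0.24 and did not pass (limma, adjusted p = 0.359). ATB Pxr+/+ males were lower than females by -1.32 ± 0.17 (limma, adjusted p = 1.47e-07), and ATB Pxr-/- males by -0.36 ± 0.17 (adjusted p = 0.106), on the log2 scale. In Cont mice the log2 signal of Adamtsl1 was 5.86 to 6.74 (median 6.33) in Pxr+/+ males and 6.94 to 7.79 (median 7.37) in Pxr+/+ females. The Cont Pxr-/- males lay at 8.21, 8.34, 8.42, 7.90 and 7.94 and the Cont Pxr-/- females at 8.34 to 8.94 (median 8.47).

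For Adamtsl1 the array holds 5 probes, of which 3 passed the filter, and the brightest one lies 228.2 and 228.9 kb from the other measured probes, which are farther along the gene. The transcripts listed for the brightest probe match 0 genes in RefSeq, whereas those of the farther probes match Adamtsl1. A probe close to the brightest one (85845401 to 85845460) did not pass the filter. It was well above background in 4 of 6 ATB Pxr-/- males and 1 of 6 ATB Pxr+/+ males. The probe at 228.2 kb was well above background in 0 of 6 ATB Pxr+/+ males and 3 of 6 ATB Pxr-/- males. It gave a log2 difference of 0.26 in ATB males (limma, adjusted p = 0.133) and 0.31 in ATB females (adjusted p = 0.468). The probe at 228.9 kb gave a log2 difference of 0.68 in ATB males (limma, adjusted p = 0.0217) and 0.40 in ATB females (adjusted p = 0.868). Of these farther probes, 1 of 2 was called in males and 0 of 2 in females. Adrb3 has a second measured probe 1.6 kb from the first, which was lower by -0.55 (limma, adjusted p = 0.0011) in ATB Pxr-/- males and by -0.29 (adjusted p = 0.629) in ATB Pxr-/- females. The other 8 genes had 1 measured probe each.

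**Figure D3:**
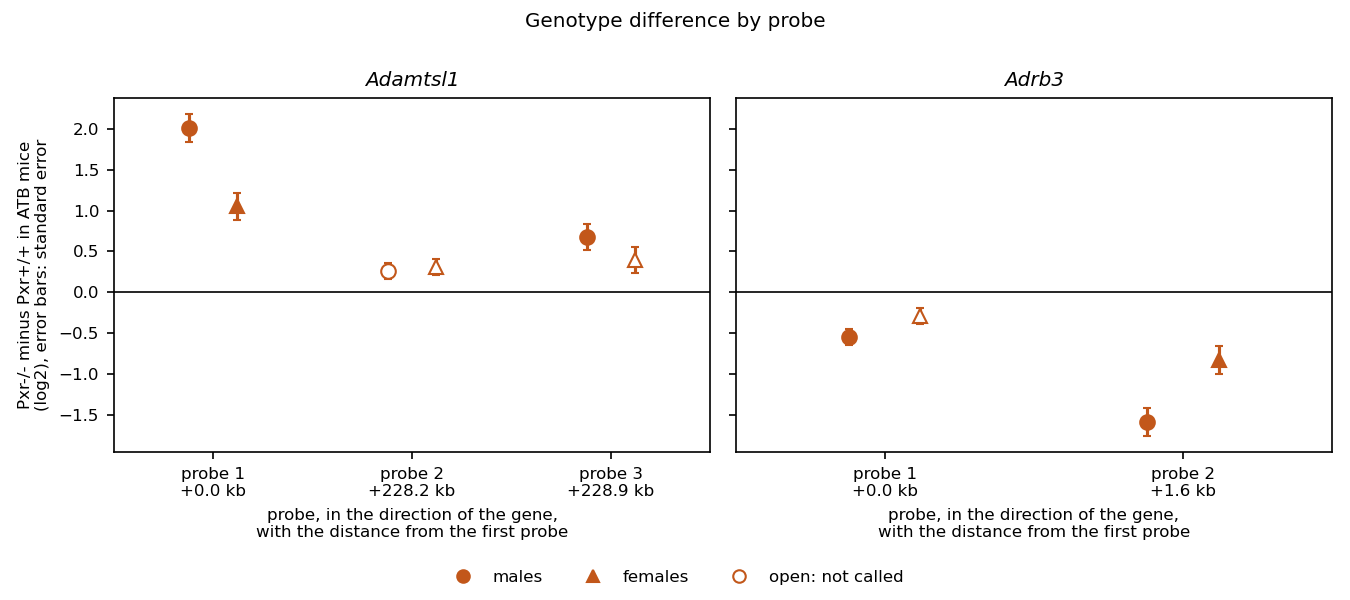
Log2 difference of Pxr-/- from Pxr+/+ ATB mice (vertical axis) at each measured probe of Adamtsl1 and Adrb3, with the probes in the direction of the gene and their distance in kb from the first one (horizontal axis, not to scale), for males (circles) and females (triangles). Bars are standard errors, filled points were called, and the brightest probe, the first of Adamtsl1 and the second of Adrb3, shows the largest difference in each gene.

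Tmeff2 (chromosome 1, 51238653 to 51238712, mm9) encodes a transmembrane protein with EGF-like and follistatin-like domains. Its log2 signal was 4.57 to 5.47 (median 4.74) in Pxr+/+ ATB males, where 3 of 6 mice were well above background, and 6.03 to 7.06 (median 6.91) in Pxr-/- ATB males, where all 6 were. These groups did not overlap, and the log2 difference was 1.87 ± 0.21 (limma, 3.67-fold, adjusted p = 7.66e-08). Because the probe passed the filter only through Pxr-/- males, tests that hold these males, here and below, were not independent of the filter. Tmeff2 was not well above background in any of the 6 ATB Pxr+/+ females, at 4.07 to 4.69 (median 4.47), and it was in 2 of 6 ATB Pxr-/- females, at 4.82 to 6.26 (median 4.92). The female log2 difference of 0.76 ± 0.21, between means of 4.44 and 5.20, did not pass (limma, adjusted p = 0.238) and rests on signals near background. ATB Pxr-/- males, at a mean of 6.74, were higher than ATB Pxr-/- females (limma, adjusted p = 3.90e-07), with overlap and with a log2 difference between 1.07 and 2.82 over the alternatives, the female signal being near background. The genotype effect in males less that in females, 1.11 ± 0.30, did not pass (adjusted p = 0.485). The Cont Pxr-/- males had 7.11, 7.35, 6.74, 7.48 and 6.75, and the Cont Pxr+/+ males 4.35 to 5.36 (median 4.55). Cont females lay at 4.28 to 4.59 (median 4.43) in Pxr+/+ and at 4.52 to 5.81 (median 5.14) in Pxr-/- mice.

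Meig1 (chromosome 2, 3326387 to 3326446, mm9), a gene known from spermatids, was called for a response to PXR loss that differed between the sexes. In ATB males its log2 signal was 4.84 to 5.30 (median 5.03) in Pxr+/+ and 6.09 to 7.65 (median 7.22) in Pxr-/- mice, with no overlap. In ATB females it was 4.09 to 4.61 (median 4.38) in Pxr+/+ and 4.54 to 5.03 (median 4.82) in Pxr-/- mice, and 1 of these 12 females was well above background. The log2 difference was 1.98 ± 0.18 in males (limma, 3.95-fold, adjusted p = 8.92e-11). In females the means were 4.79 and 4.38, both near background, and the log2 difference of 0.41 ± 0.18 did not pass (limma, adjusted p = 0.93). The male effect less the female effect was 1.58 ± 0.25 (limma, adjusted p = 0.000773), and Meig1 was the 1 gene of 10 called in this comparison, in which 0.0457% of all genes were called. Because the Meig1 probe passed the filter only through groups of males, this test was not independent of the filter. With the scanner's background-subtracted signal scaled to each array's 75th percentile, this difference of effects was 1.72 and did not pass (limma, adjusted p = 0.336), and the female difference was then 1.53 (adjusted p = 0.00668). The male difference ranged from 1.35 (normexp with quantile normalization) to 3.26 (background-subtracted signal).

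Male Meig1 exceeded female Meig1 in both genotypes of ATB mice. These tests between the sexes were not independent of the filter, which the Meig1 probe passed only through groups of males. The log2 difference was 0.69 ± 0.18 in Pxr+/+ mice, at means of 5.07 and 4.38 (limma, adjusted p = 0.00537). Here 4 of 6 males and 0 of 6 females were well above background. This call was lost with normexp and quantile normalization (log2 difference 0.29, limma, adjusted p = 0.102). In Pxr-/- mice the means were 7.06 and 4.79, called at an adjusted p = 7.89e-14 (limma), with 1 of 6 females well above background and a log2 difference between 1.52 and 4.36 over the alternatives. In Cont mice, the log2 signal was 4.94 to 5.81 (median 5.47) in Pxr+/+ males, and 6.68, 7.18, 7.90, 7.21 and 7.67 in Pxr-/- males. In the Cont females it was not well above background in any mouse, at 4.11 to 4.45 (median 4.29) in Pxr+/+ and 4.25 to 4.68 (median 4.47) in Pxr-/- mice. Beside Meig1, 3 of 6 testis and germ cell markers were measured, Tnp2, Ddx4 and Spata18 did not pass the filter, and 0 of the 3 were called between genotypes in ATB males or females. Their mean log2 signal ranged from 4.80 to 5.34 in Pxr+/+ and from 4.88 to 5.45 in Pxr-/- ATB males, and 4.92 to 5.51 and 4.67 to 5.94 in ATB females.

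Apol7b, Mmd2 and Adrb3 were the genes chosen for lower expression in Pxr-/- mice. Apol7b (chromosome 15, 77252643 to 77252702, mm9) belongs to the apolipoprotein L family, and its probe also matches the accession of the neighboring copy Apol7e, so the signal may come from either. In ATB males the log2 signal was 8.35 to 8.88 (median 8.70) in Pxr+/+ and 7.22 to 7.70 (median 7.47) in Pxr-/- mice, with no overlap and a log2 difference of -1.19 ± 0.14 (limma, 2.29-fold lower, adjusted p = 1.58e-07). In ATB females it was 7.97 to 8.96 (median 8.70) in Pxr+/+ and 7.75 to 8.24 (median 7.86) in Pxr-/- mice. These female groups overlapped, and the log2 difference was -0.65 ± 0.14 (limma, 1.57-fold lower, adjusted p = 0.0239). The female call was lost (adjusted p = 0.0687 to 0.129) when any 1 of 8 ATB females was left out, namely Pxr+/+ replicates 1, 3, 5 and 6 and Pxr-/- replicates 1, 2, 5 and 6. With only the groups compared in the fit its adjusted p was 0.134.

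In Cont mice the separation of Apol7b was wider, at 8.46 to 9.02 (median 8.69) in Pxr+/+ males and 8.49 to 9.28 (median 8.91) in Pxr+/+ females. Cont Pxr-/- males had 7.19, 7.24, 7.19, 7.30 and 6.94, and Cont Pxr-/- females lay at 7.21 to 7.67 (median 7.51). Taken as a description, the log2 genotype difference went from -1.54 in Cont to -1.19 in ATB males and from -1.41 to -0.65 in females. Apol7b did not differ between the sexes in ATB Pxr+/+ mice beyond the spread (limma, log2 difference 0.07 ± 0.14, adjusted p = 0.832). It was lower in males among ATB Pxr-/- mice (-0.47 ± 0.14, limma, adjusted p = 0.0103), where the median over all genes was -0.17, and this call was lost under quantile normalization (-0.25), with the background-subtracted signal scaled to the 75th percentile (-0.27), with normexp and quantile normalization together (-0.22) and with the authors' normalized values (-0.37, adjusted p = 0.0551).

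Mmd2 (chromosome 5, 143039928 to 143039987, mm9) encodes a membrane protein of the progestin and adipoQ receptor family. The log2 signal was 5.77 to 6.74 (median 6.26) in Pxr+/+ and 4.95 to 5.96 (median 5.45) in Pxr-/- ATB males. In ATB females it was 7.20 to 8.34 (median 7.41) in Pxr+/+ and 6.86 to 7.47 (median 6.94) in Pxr-/- mice. Both pairs of groups overlapped, and Mmd2 was the 1 gene of 10 not called between genotypes in either sex, at a log2 difference of -0.77 ± 0.21 in males (limma, adjusted p = 0.0605) and -0.61 ± 0.21 in females (adjusted p = 0.685). Without the ATB Pxr+/+ male replicate 2 the male difference passed (adjusted p = 0.0471), as it did with the background-subtracted signal scaled to the 75th percentile (-1.10, adjusted p = 0.0309). Males were lower than females by -1.39 ± 0.21 in ATB Pxr+/+ (limma, adjusted p = 3.86e-06) and by -1.55 ± 0.21 in ATB Pxr-/- mice (adjusted p = 3.52e-07), with no overlap. Of 12 macrophage markers read beside Mmd2, 12 of 12 were higher in ATB Pxr-/- males (median log2 difference 0.20) and 0 of 12 in ATB Pxr-/- females (median -0.43), with 0 called in either sex. Their mean log2 signal ranged from 9.41 to 10.67 in Pxr+/+ and from 9.25 to 11.79 in Pxr-/- ATB males, and 9.76 to 11.61 and 9.83 to 10.85 in ATB females, and their part in the Mmd2 values was not tested.

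Mmd2 was also the 1 gene of 10 called for ATB itself, taken as the mean of both genotypes. This test subtracts the Cont mice, whose genotype difference chose the genes, so it does not rest on ATB mice alone. In females Mmd2 was lower under ATB by -0.76 ± 0.15 on the log2 scale (limma, 1.70-fold, adjusted p = 0.0071), where 0.59% of all genes were called. Cont females had log2 signals of 7.82 to 9.04 (median 8.50) in Pxr+/+ and 7.21 to 8.08 (median 7.76) in Pxr-/- mice, each reaching above the ATB females of the same genotype. Cont males had 6.42 to 7.45 (median 6.85) in Pxr+/+ and 5.90, 5.75, 5.78, 5.19 and 5.70 in Pxr-/- mice. In males ATB changed 0 of the 10 genes by this test (limma), where 1.80% of all genes were called. At an unadjusted p below 0.05, which 19% of all genes had, there were 3 of 10 in males, namely Mmd2 (log2 difference -0.41, adjusted p = 0.149), Meig1 (-0.32, adjusted p = 0.18) and Cyp2g1 (0.71, adjusted p = 0.147). In females Cyp2g1 was the next largest, at 0.90 ± 0.26 (limma, adjusted p = 0.108).

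Adrb3 (chromosome 8, 28336268 to 28336327, mm9), the beta-3 adrenergic receptor that drives lipolysis and heat production in fat, was lower in ATB Pxr-/- mice of both sexes. The log2 signal was 9.60 to 9.81 (median 9.63) in Pxr+/+ and 7.75 to 8.57 (median 8.01) in Pxr-/- ATB males. In ATB females it was 8.99 to 9.54 (median 9.13) in Pxr+/+ and 8.14 to 8.61 (median 8.38) in Pxr-/- mice. Neither pair of groups overlapped. The log2 difference was -1.59 ± 0.17 in males (limma, 3.02-fold lower, adjusted p = 3.66e-08) and -0.83 ± 0.17 in females (1.78-fold lower, adjusted p = 0.021). The female call was lost (adjusted p = 0.0505 to 0.085) when any 1 of 5 ATB females was left out, namely Pxr+/+ replicates 1 and 2 and Pxr-/- replicates 3, 4 and 6. The male effect less the female effect, -0.76 ± 0.25, did not pass (limma, adjusted p = 0.485).

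In Cont mice the order of the sexes for Adrb3 was the reverse, as a description. Its log2 genotype difference was -0.74 in Cont males and -1.32 in Cont females. Cont Pxr-/- males had 8.58, 8.17, 8.64, 8.35 and 8.49 beside Pxr+/+ males at 8.79 to 9.56 (median 9.20), and Cont females lay at 8.55 to 9.88 (median 9.09) in Pxr+/+ and 7.06 to 8.32 (median 7.85) in Pxr-/- mice. Of 7 adipose markers 5 were measured, whereas Adipoq and the brown fat gene Ucp1 did not pass the filter, and 0 were called between genotypes. The log2 difference was above 0 for 5 of 5 in ATB males (median 0.22) and for 3 of 5 in ATB females (median 0.02), and their part in the Adrb3 values was not tested. Their mean log2 signal ranged from 6.18 to 7.23 in Pxr+/+ and from 6.36 to 7.71 in Pxr-/- ATB males, and 5.24 to 5.56 and 5.17 to 5.69 in ATB females.

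The sex of the mice separated several of the genes. In ATB Pxr+/+ mice, 1 gene of 10 (Meig1) was higher and 4 (Akr1b7, Adamtsl1, Cyp2g1 and Mmd2) were lower in males (limma), beside 3.43% and 9.02% of all genes. In ATB Pxr-/- mice, 2 (Meig1 and Tmeff2) were higher and 4 (Akr1b7, Apol7b, Cyp2g1 and Mmd2) were lower in males, beside 2.52% and 23.3% of all genes. Pla2g12a, Rarres1 and Adrb3 were called in neither. The Meig1 probe passed the filter only through groups of males and that of Tmeff2 only through Pxr-/- males. Their calls as higher in males were therefore not independent of the filter. With only the groups compared in the fit, 9 of 10 genes were called in ATB Pxr-/- mice and 6 in ATB Pxr+/+ mice. Of all 21873 genes, 5472 were called in ATB Pxr-/- mice and 2896 in ATB Pxr+/+ mice in this fit. The added genes in Pxr-/- mice were Pla2g12a (log2 difference -0.38, limma, adjusted p = 0.0116), Rarres1 (0.42, 0.0294) and Adamtsl1 (-0.36, 0.0328). In Pxr+/+ mice Adrb3 was added (0.44, 0.0191). The share of all genes called lower in males depends on the scaling: in ATB Pxr-/- mice 551 were higher and 5091 lower, and under quantile normalization 1478 were higher and 1390 lower. In ATB Pxr+/+ mice these numbers were 750 and 1974, and 1378 and 1808 under quantile normalization. Akr1b7, Cyp2g1 and Mmd2 were lower in males of both genotypes under every alternative in the processing that measured them.

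**Figure D4:**
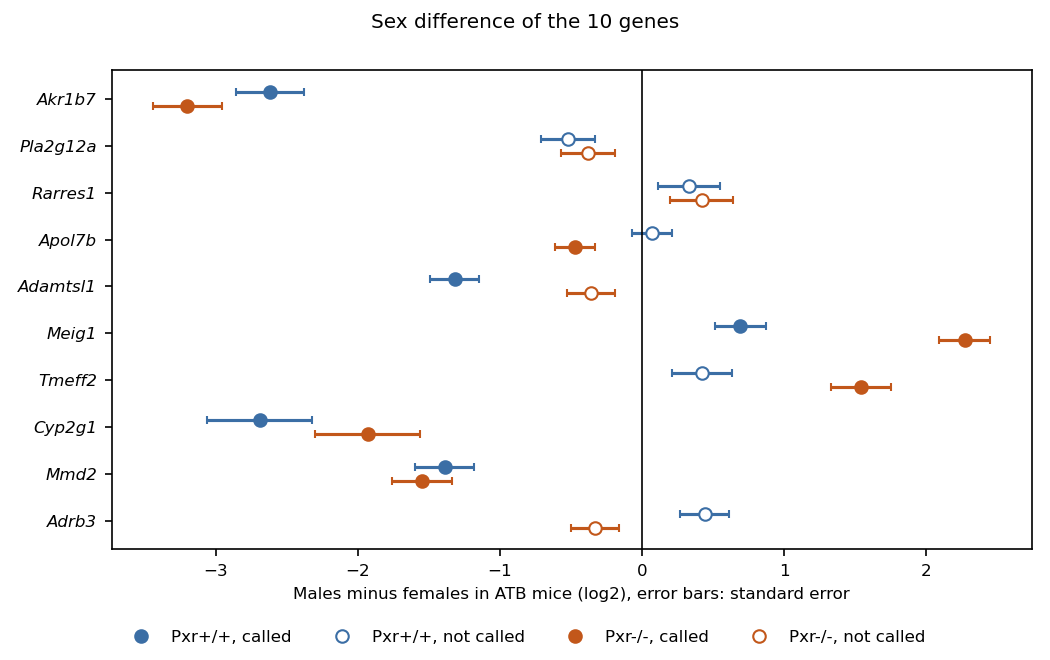
Log2 difference of ATB males from ATB females (horizontal axis) for each of the 10 genes in Pxr+/+ and Pxr-/- mice, with bars for the standard error of the limma fit and filled points where called. Akr1b7 and Cyp2g1 lie farthest to the left in both genotypes, and Meig1 and Tmeff2 move to the right in Pxr-/- mice.

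Relatives of the 10 genes were tested for PXR loss in the same ATB mice. Of 65 relatives listed from their families, 63 were on the array and 45 were tested, and limma called 0 of 45 between genotypes in ATB males and 0 of 45 in ATB females, where 0.914% and 0.215% of all genes were called. At an unadjusted p below 0.05 there were 2 and 1 of 45, beside 22.9% and 5.19% of all genes. The median size of their log2 difference was 0.10 in males and 0.09 in females, beside 0.15 and 0.07 over all genes. The aldo-keto reductases Akr1b3, Akr1b8 and Akr1b10 had log2 differences of 0.02, -0.29 and 0.12 in ATB males, and the catalytically inactive phospholipase relative Pla2g12b had -0.11. The latexin gene Lxn, related to Rarres1, had -0.08 and Mmd had -0.07. Adrb1, a relative of Adrb3, had -0.01. Apol7a, of the same gene cluster as Apol7b, had -0.30 ± 0.16 (limma, adjusted p = 0.228). The Cont values of the 6 measured Apol relatives are given as a description. In females, Apol7a had -0.55, Apol7c -0.59, Apol9a -0.75, Apol9b -0.71, Apol10b -0.15 and Apol11b 0.01, where the median over all genes was -0.12. In Cont males the same genes had -0.22, -0.04, 0.17, 0.13, 0.01 and -0.11.

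The relatives of Cyp2g1 on chromosome 7 included known PXR and CAR targets. Cyp2b10, which drugs induce through these receptors, had a log2 difference of 0.62 ± 0.33 in ATB males (limma, adjusted p = 0.246) and 0.19 ± 0.33 in ATB females (adjusted p = 1.00). The steroid hydroxylase Cyp2a4 had 0.53 ± 0.26 in ATB males (limma, adjusted p = 0.21). As a description, the log2 genotype difference in Cont males was -0.62 for Cyp2b10, -0.86 for Cyp2b9 and 0.69 for Cyp2a4. In Cont females it was 0.13, -0.11 and 0.10. The sexes differed more for these P450s: Cyp2b9 and Cyp2b10 were lower in ATB Pxr+/+ males by log2 differences of -8.49 and -7.44 (limma, adjusted p = 7.99e-26 and 3.35e-22). Cyp2b13 was at least 703-fold lower in these males, none of which was well above background (limma, adjusted p = 2.41e-31). Over all 45 relatives, 2 were higher and 12 lower in males in ATB Pxr+/+ mice, and 1 was higher and 15 lower in ATB Pxr-/- mice, beside 3.43% and 9.02%, and 2.52% and 23.3%, of all genes. In males ATB lowered Cyp2b10 by -2.49 (limma, adjusted p = 1.15e-08) and Cyp2b9 by -2.07 (adjusted p = 7.29e-08) and raised Apol10b by 0.62 (adjusted p = 0.0433), where 1.8% of all genes were called. In females 0 of 45 were called (limma), beside 0.59% of all genes. At an unadjusted p below 0.05 there were 9 of 45 in females, beside 11.9% of all genes.

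**Figure D5:**
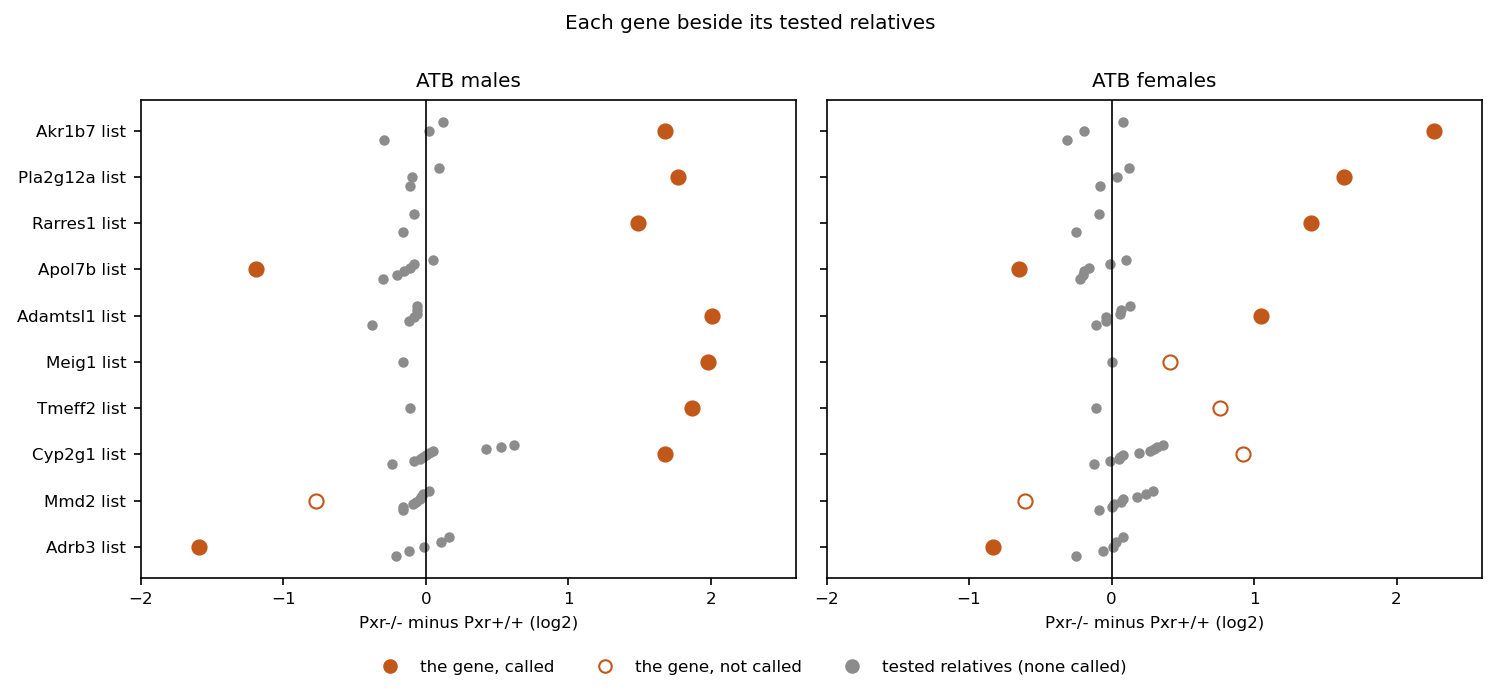
Log2 difference of Pxr-/- from Pxr+/+ ATB mice (horizontal axis) for the 10 genes and the 45 tested relatives, with a row for each gene and its relatives and panels for males and females. In these ATB mice 0 of the 45 relatives were called, with Cyp2b10 at 0.62 and Cyp2a4 at 0.53 the farthest to the right of them in males. Of the 10 genes, 9 were called in males and 6 in females.

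Across all 47 mice the genes most alike to each of the 10 were read from Pearson's r, as a description, since the mice share sex, genotype and treatment. These mice include the Cont mice that chose the genes, so a shared genotype difference enters r through that choice. Akr1b7 was most like Papss2 (r = 0.945), which makes the sulfate donor of sulfotransferases, then Sult2a5 (0.899) and the glutathione transferase Gstm2 (0.892). Cyp2g1 was also most like Papss2 (r = 0.901), followed by the chemokine Ccl9 (0.877) and Cyp2a4 (0.873). Mmd2 was most like Sdc1 (0.903), Runx3 (0.896) and Klhl13 (0.892). Rarres1 was most like Tctex1d2 (0.811) and Cyp2c55 (0.796), and Meig1 and Tmeff2 had the pseudogene Cyp2c53-ps among their nearest (0.859 and 0.79). Pla2g12a was most like the insulin-like growth factor binding protein Igfbp2 (0.889) and Ift57 (0.862), Adamtsl1 like Rnf150 (0.857) and Krt31 (0.855) among named genes, Apol7b like Pigx (0.909) and Senp5 (0.864), and Adrb3 like Pigx (0.789) and the steroid reductase Srd5a2 (0.78).

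Of the 26 genes named by that measure, each counted once, 5 (19.2%) lie on chromosome 16, which carries Nr1i2, beside 3.23% of all genes with a position. They are Ift57, Tctex1d2, Pigx, Senp5 and Dubr, the last of which was among the nearest to Apol7b (0.795). Among all genes called between genotypes, 20 of 199 with a position (10.1%) in ATB males and 8 of 47 (17%) in ATB females lie on chromosome 16. None of the 10 genes lies on chromosome 16. The residuals of the 10 genes after their group means were compared as well, and over 45 pairs r ranged from -0.35 (Meig1 and Tmeff2) to 0.46 (Pla2g12a and Cyp2g1), with a median of 0.01 and 0 pairs above 0.5.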

How the data were processed

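Liver RNA of 47 mice was read on Agilent SurePrint G3 Mouse GE v2 arrays, on 6 slides washed in 3 batches of 23, 16 and 8 arrays. The authors deposited scanner files (Agilent Feature Extraction 10.10.1.1, per the submitters' processing notes) whose median signal is an intensity on a linear scale, with no background subtracted. They also deposited log2 values that they had filtered, corrected for the washing bath and normalized with CrossNorm, for 33383 probes, which served here as an alternative.

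From these intensities, median signals were put on the log2 scale, repeated spots were averaged and 422 non-uniform spot values were left out, so that 163 values of the tested probes are missing. To be tested, a probe had to be well above background in 5 or more mice of some group, and 32974 probes for 21873 genes met this. The wash batch was removed with the group means kept, and CrossNorm was run as the mean of 300 seeded stacks of 1 array per group. The authors' filter rule and way of stacking are not given in the sources used here, and a shift of whole arrays between groups is left in place by such stacks. Models in limma 3.58.1 (R 4.3.3) held group and wash batch, with 1 spread per probe shared by the 8 groups and Benjamini-Hochberg adjustment over all probes. They were tested on simulated data. Sequences were matched to RefSeq by symbol, and probe coordinates are those of the array files (mm9).

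Named genes are the 10 members, those relatives and markers that are called or stand closest in the family, and the 3 genes of highest r to each member. The members, the gene lists and the tests were chosen with earlier results of these data known. Replicates are mice, as the labels give them, and with cages shared and not given the p-values may understate the spread. Alternatives were quantile normalization, the processed signal less the 75th percentile, normexp (offset 50) with quantile normalization, the authors' values, all probes tested, a filter on all 47 arrays, a block for the slide or for the replicate number, leaving out the wash correction, only the groups compared, and each mouse left out. The number of arrays limits the precision.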

Additional observations from a re-analysis of the deposited data

Results flagged for a closer look

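Of 80 groups of mice examined (10 genes in 8 groups), 4 held a mouse set apart from the rest of its group by Dixon's criterion, and chance flags about 1 group in 20. These were the female Pxr-/- Cont replicate 3 for Adamtsl1 (log2 signal 8.94), the female Pxr-/- ATB replicate 6 for Mmd2 (7.47), the male Pxr-/- Cont replicate 5 for Mmd2 (5.19) and the male Pxr+/+ ATB replicate 2 for Adrb3 (9.81). The effect of PXR loss on Meig1 in ATB males exceeded that in ATB females by 1.58 on the log2 scale (limma, adjusted p = 0.000773), a difference tested as an interaction, with a probe that was near background in females. This probe passed the filter only through groups of males, so the interaction was not independent of the filter.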

How the results depend on the processing

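The number of the 10 genes called between genotypes ranged from 6 (of 6 measured, only probes above background on all arrays) to 10 (processed signal) in ATB males and from 5 to 8 in ATB females under the alternatives. For single genes 303 of 313 results kept their direction and their side of the threshold, 7 lost the call, 3 gained it and 0 reversed. With single mice left out, 405 of 420 did, 14 lost it and 1 gained it, and the number called was 8 to 10 in ATB males, 4 to 6 in ATB females, 1 to 2 for the difference between these effects, 5 to 6 (Pxr+/+) and 6 (Pxr-/-) between ATB sexes, and 0 in males and 1 to 2 in females for ATB itself. The difference between the effects was called for 0 genes with the processed signal, 2 under quantile normalization and 0 with the filter on all arrays. ATB itself was called for 1 gene in males with the processed signal, for 2 in females with normexp and quantile normalization and for 0 in females with the filter on all arrays, which also left 2 genes called between ATB sexes in each genotype. It measures 6 of the 10 genes. Between ATB sexes the number was 5 to 9 (Pxr-/-) and 5 to 7 (Pxr+/+) under the other alternatives, the 9 with only the groups compared. The processed signal is scaled to the 75th percentile, and with it Tmeff2 was called between ATB females (log2 difference 2.56, adjusted p = 0.0306), and with normexp and quantile normalization the sex difference of Meig1 in ATB Pxr+/+ mice was lost (0.29, adjusted p = 0.102). Same-numbered mice of different groups shared only a number (r of their deviations from -0.223 to 0.257, over 0.1 in 2 of 12 pairs), and with the replicate block 9 genes were called in ATB males and 6 in ATB females, as without it. Over all genes, the number called in ATB males went from 200 to 118 with no filter, in ATB females from 47 to 26 with only the groups compared, for the difference between the effects from 10 to 5 with the processed signal, and between ATB Pxr-/- sexes from 5642 to 2868 with quantile normalization and 2294 with normexp and quantile normalization. For ATB itself in females it went from 129 to 308 with the processed signal and to 31 with only the groups compared. Depth limits Meig1 and Tmeff2, whose probes were near background in females, so that values set against those females rest on signals near the floor.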
